A study of Arabidopsis thaliana with 8 samples.

Results

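The genes described here are the cytochrome P450 genes of Arabidopsis thaliana left after a set of families best known for brassinosteroid, jasmonate, flavonoid, carotenoid, glucosinolate and suberin pathways was put aside, 121 of the 22951 genes in the deposited table. They were chosen by their NCBI symbol, which had to have the form CYP, a number, letters and a number, and by a mean of at least 1 FPKM over all 8 libraries (fragments per kilobase of transcript, normalised to library size). The families CYP72B, CYP72C, CYP74, CYP75, CYP79, CYP83, CYP85, CYP86, CYP90 and CYP97 were left out, which set aside 20 listed genes. Genes of hormone pathways remain among the 121, 10 of them in a role list of hormone metabolism that includes CYP94C1, which oxidises a jasmonate. Glucosinolate-modifying CYP81F genes remain as well. Of the 171 genes that met the symbol rule, 50 had a lower mean and do not enter the counts. The mean was the only measured value in the rule. The set was chosen with earlier results of these data known, so its counts beside those of all tested genes are descriptions. Just inside it were CYP94B2 (1.13 FPKM), CYP705A28 (1.08) and CYP708A1 (1.07), and just outside CYP81D3 (0.974), CYP78A6 (0.970) and CYP716A1 (0.929).

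The libraries were made from whole light-grown seedlings 5 days old, all on the Col-0 background, raised at 22 °C under 16 h of light and 8 h of dark after 4 days of cold at 4 °C. There were 3 libraries of wild-type Col-0, 2 of a line with overexpression of MIR394A (MIR394A_OE), and 3 of bin2-1. The bin2-1 allele is known as a dominant mutation of BIN2, a kinase that holds brassinosteroid signalling down, and miR394 is a microRNA known to target the F-box gene LCR. The sources used here do not give the promoter of the transgene or the number of lines, nor whether each replicate was sown apart from the others. The p-values thus cover the variation of these libraries alone, and that may be technical.

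Cytochrome P450 enzymes bind a heme through a conserved cysteine and use it to insert an oxygen atom into small molecules. Most plant P450s sit in the membrane of the endoplasmic reticulum and take their electrons from an NADPH-cytochrome P450 reductase, in some cases with the help of cytochrome b5. They make or break down sterols, terpenes, phenolics, fatty acids, hormones and defence compounds, and some are induced by foreign chemicals. Many plant P450 genes arose by tandem duplication, so that near copies stand side by side on a chromosome.

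The stretch around the heme cysteine is what these genes share, and it is shown for the 6 genes whose levels the comparisons turn on. Each line gives 10 codons of the coding strand from the RefSeq TAIR10.1 genome, 5′ to 3′, with the cysteine codon in capitals. The table of FPKM values names no build and carries no coordinates, so the positions are those of TAIR10.1.
CYP706A1, chr4:11931305-11931334, plus strand: tttgggtcaggaaggaggattTGTgcggcg
CYP706A2, chr4:11936403-11936432, plus strand: tttgggtcaggaaggaggattTGTgcggcg
CYP81D11, chr3:10788962-10788991, minus strand: tttgggattggacgacgatctTGCcctggt
CYP71B7, chr1:4468657-4468686, plus strand: tttggttctggccggagaatcTGTcccggg
CYP87A2, chr1:4344296-4344325, plus strand: tttggtggaggtatgaggttcTGCgttgga
CYP72A8, chr3:4916671-4916700, plus strand: tttggatggggaccaagattcTGTcctggc
CYP706A1 and CYP706A2 differed at 0 of these 30 bases, whereas CYP706A1 and CYP81D11 differed at 14. The signature that PROSITE gives for the cysteine heme-iron ligand was found in the coding sequence of 110 of the 121 genes (90.91%) and in 54 of 27253 other coding genes of the reference (0.2%). The 11 genes in which it was not found were CYP716A2, CYP71A27, CYP72A11, CYP72A13, CYP72A14, CYP72A15, CYP735A2, CYP94B1, CYP94B2, CYP94B3 and CYP94C1. The match describes the letters of a gene and says nothing about its activity.

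The 121 genes came from 30 families, led by CYP71 with 30 genes, CYP705 with 18 and CYP81 with 11. Their median level was 6.06 FPKM, beside 11.5 FPKM over all 18798 genes that reached a mean of 1 FPKM and were tested. The summed level of the 121 genes was uneven, and its first 2 genes, CYP81F4 and CYP706A1, held 24.5% of it and the first 10 held 51.0%. There were 40 genes at 10 FPKM or more, 54 from 3 to under 10, and 27 under 3. Of the 121 genes, 120 were above 0 in every library, and CYP82G1 was listed at 0 in Col-0 replicate 1. The depth of the libraries was not stated, and the steps between low FPKM values gave an estimate of 9740000 to 11280000 fragments, at which 3 fragments on a transcript of 1 kb correspond to 0.266 to 0.308 FPKM. Genes near 1 FPKM therefore rest on few fragments.

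CYP81F4 (AT4G37410, chromosome 4), which adds oxygen to the ring of indole glucosinolates, was the highest. Its level was 342.0, 310.1 and 289.2 FPKM in Col-0, 187.0 and 252.8 in MIR394A_OE, and 245.3, 217.8 and 194.5 in bin2-1, so that every Col-0 library lay above the other 5. After CYP706A1 came CYP72A13 (a mean of 79.7 FPKM over the 8 libraries), then CYP51G1 (67.5), a demethylase of plant sterol synthesis, and CYP705A5 (60.2), a triterpene-modifying enzyme of the thalianol pathway. They were followed by CYP71B7 (57.6), CYP98A3 (53.8), a hydroxylase on the way to lignin, and CYP708A2 (49.1), the thalianol hydroxylase. For 38 of the 121 genes a role list was drawn up, and the other 83 were given no role.

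The libraries differed in ways the groups do not explain. On the first principal component of all tested genes (43.1% of the variance), MIR394A_OE replicate 1 was at -54.2 and Col-0 replicate 1 at -35.4, while the other library of MIR394A_OE was at -2.9 and the other Col-0 libraries at -15.0 and 2.7. The bin2-1 libraries were together, between 30.9 and 38.6. Among the P450 genes, Col-0 replicate 1 held the highest value of 42 of the 121 (34.7%), although it held the highest value of 11.6% of all tested genes. MIR394A_OE replicate 2 was highest for 1 of the 121. The overexpressor could be checked through LCR only, at 19.6, 19.6 and 23.9 FPKM in Col-0 17.2 and 17.5 in MIR394A_OE, and 27.0, 23.9 and 16.0 in bin2-1. Its level was below Col-0 in both MIR394A_OE libraries, but lower still in bin2-1 replicate 3, so it is a weak check of that label. The bin2-1 label, a point mutation, was not checked by a level.

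**Figure D1:**
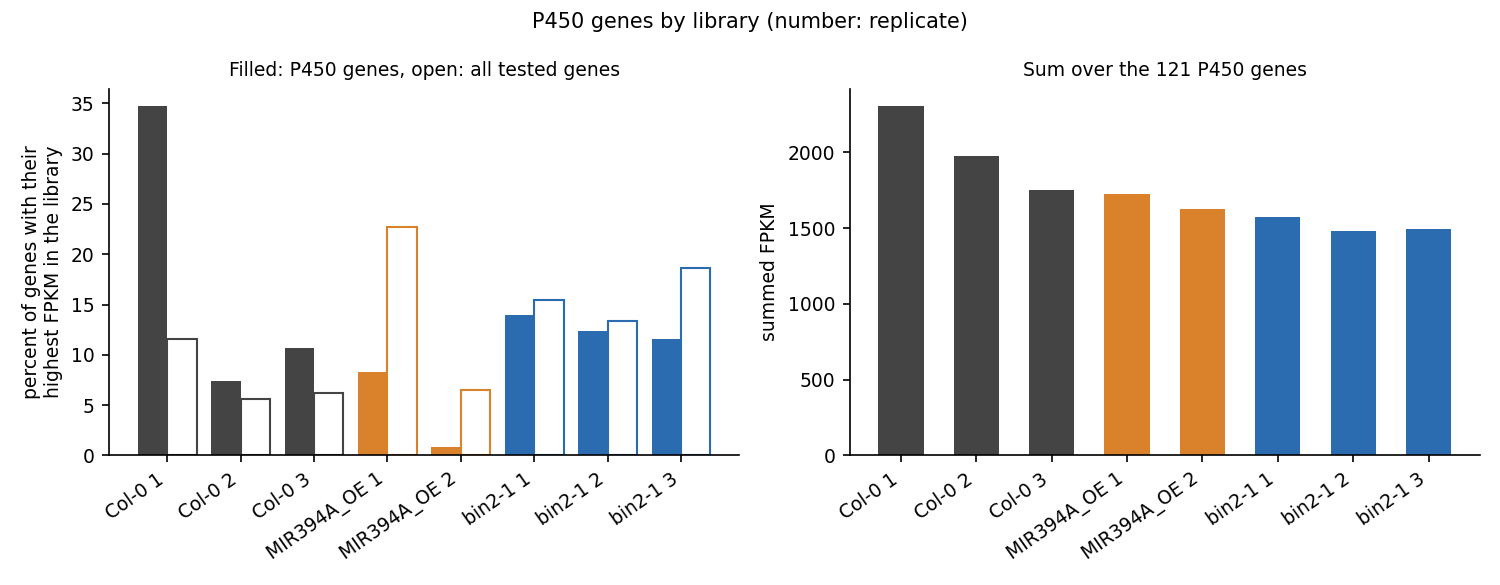
Left, the percentage of genes that have their highest FPKM in each library, for the 121 P450 genes (filled bars) and all 18798 tested genes (open bars). Right, the summed FPKM of the 121 P450 genes in each library. For the P450 genes, Col-0 replicate 1 stands highest in both panels, and the 3 bin2-1 libraries have the lowest sums, 1479 to 1572 FPKM. For all tested genes, MIR394A_OE replicate 1 stands highest (22.7%).

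Summed over the 121 genes, the level was 2304, 1976 and 1753 FPKM in Col-0, 1727 and 1624 in MIR394A_OE, and 1572, 1479 and 1492 in bin2-1. The 3 groups did not overlap, with Col-0 highest and bin2-1 lowest, although Col-0 replicate 3 was close to MIR394A_OE replicate 1. Without CYP706A1 and CYP81F4 the sums were 1691, 1395 and 1276 in Col-0, 1353 and 1196 in MIR394A_OE, and 1229, 1181 and 1188 in bin2-1, so that only the ranges of Col-0 and bin2-1 stayed apart. The sum was not tested, since the genes had been selected with earlier results of these data in view. In whole seedlings, fewer cells of a type and less RNA per cell cannot be told apart.

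Seedlings of bin2-1, in which a mutant kinase holds brassinosteroid signalling down, were set against Col-0 first. CYP706A1 and CYP81D11 fell, to 2.51-fold and 2.38-fold lower on the scale of FPKM + 1. They were the only genes of the 121 called by limma at an adjusted p under 0.05 over all 18798 tested genes, where 0.112% of the tested genes were called. None of the 121 was called higher. By ranges, 28 of the 121 (23.1%) were lower in every bin2-1 library than in every Col-0 library, beside 8.47% of the tested genes, and 12 (9.9%) were higher in every one, beside 20.2%. Without Col-0 replicate 1 these counts were 31 lower (25.6%, beside 11.5% of the tested genes) and 25 higher (20.7%, beside 30.8%). Among the lower genes, CYP71B12 and CYP89A6 averaged 0.21 and 0.76 FPKM in bin2-1, so they reached the mean of 1 FPKM only through the other groups.

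CYP706A1 (AT4G22690, chromosome 4) is a gene of a family with terpene-oxidising members in flowers, and its own substrate is not stated here. It was at 270.5, 270.8 and 188.4 FPKM in Col-0, 187.3 and 175.6 in MIR394A_OE, and 98.1, 79.9 and 109.5 in bin2-1. All 3 bin2-1 libraries were below the other 5, and the lowest Col-0 library was next to the MIR394A_OE libraries. The means were 243.2 ± 47.5 FPKM in Col-0 and 95.8 ± 14.9 in bin2-1 (SD, n = 3 each). On the log2 scale the difference was -1.33 (SE 0.19, 95% interval -1.75 to -0.90, limma, adjusted p = 0.0446).

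Its neighbour CYP706A2 (AT4G22710) is a copy with 92.1% identity in the coding sequence. It was at 23.9, 36.6 and 12.3 FPKM in Col-0, 14.8 and 14.6 in MIR394A_OE, and 9.01, 6.47 and 7.33 in bin2-1. The 3 bin2-1 libraries were again lowest and the Col-0 libraries varied widely, and the difference from Col-0 did not pass the test (log2 fold change -1.44, SE 0.32, limma, adjusted p = 0.0936). The handling of fragments that match both copies is not stated, so the split between these levels is uncertain.

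The 250 bases before the annotated start of each of these genes, from TAIR10.1, are shown because both copies were lowest in bin2-1 while these windows differ. Capitals mark TGACG (the core of the as-1 element bound by TGA factors), CACGTG (the G-box) and CGTGTG or CGTGCG (sites known for BZR1, a brassinosteroid-regulated factor), on either strand. The windows of CYP706A1 and CYP706A2 were 47.7% identical in an alignment.
CYP706A1, chr4:11929109-11929358, plus strand: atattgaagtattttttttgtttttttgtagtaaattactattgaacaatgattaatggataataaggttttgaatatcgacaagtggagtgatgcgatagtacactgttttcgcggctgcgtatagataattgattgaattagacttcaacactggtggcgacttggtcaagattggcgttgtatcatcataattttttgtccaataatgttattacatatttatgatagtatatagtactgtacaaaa
CYP706A2, chr4:11934719-11934968, plus strand: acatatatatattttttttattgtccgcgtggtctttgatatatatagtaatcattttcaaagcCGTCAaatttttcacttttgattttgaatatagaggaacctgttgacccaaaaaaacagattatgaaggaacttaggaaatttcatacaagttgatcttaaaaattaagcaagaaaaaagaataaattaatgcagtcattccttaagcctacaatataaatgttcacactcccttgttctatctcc
CYP81D11, chr3:10790554-10790803, minus strand: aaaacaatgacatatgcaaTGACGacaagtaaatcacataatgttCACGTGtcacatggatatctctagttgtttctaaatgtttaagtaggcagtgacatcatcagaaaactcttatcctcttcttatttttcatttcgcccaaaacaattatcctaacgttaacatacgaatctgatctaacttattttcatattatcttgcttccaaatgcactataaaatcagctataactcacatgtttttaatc
CYP81D11 held TGACG at position -231 and CACGTG at -205 from its start, and CYP706A2 held TGACG on the other strand at -186. None of the marked motifs was in the windows of CYP706A1 and CYP72A8. Of the genes that were higher in bin2-1, CYP71B7 also held TGACG at -231, and CYP87A2 held CGTGTG on the other strand at -119, so TGACG was found in genes that differed in either direction. Over all 27443 windows of this length in the reference, TGACG was in 18.6%, CACGTG in 6.5% and CGTGTG or CGTGCG in 6.7%. Among the windows of the 121 genes the shares were 13.2%, 6.6% and 10.7%. Of the other motifs searched on both strands, ACGTG, which overlaps CACGTG, was in 31 of the 121 windows and 22.9% of all, TTGAC in 58 and 44.9%, and CANNTG, which also takes in CACGTG, in 72 and 55.3%. A match is a description of the letters, not of a bound site.

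CYP81D11 (AT3G28740, chromosome 3) is known for its induction by cis-jasmone and by foreign chemicals through TGA factors. It was at 26.2, 23.2 and 20.04 FPKM in Col-0, 35.6 and 26.9 in MIR394A_OE, and 8.09, 8.90 and 10.4 in bin2-1. The 3 groups did not overlap, with MIR394A_OE highest and bin2-1 lowest. From 23.1 ± 3.07 in Col-0 to 9.12 ± 1.16 in bin2-1 (SD, n = 3 each), the log2 difference was -1.25 (SE 0.18, 95% interval -1.65 to -0.86, limma, adjusted p = 0.0446). Its nearest copy, CYP81D6, had 71.7% coding identity.

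**Figure D2:**
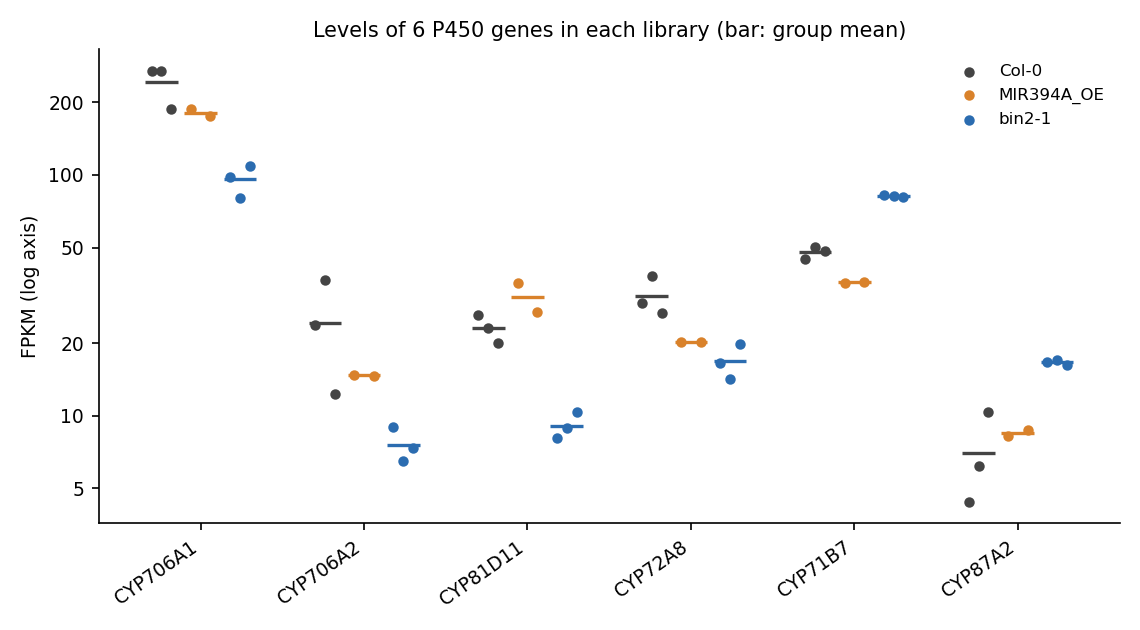
FPKM on a log axis for 6 P450 genes in each of the 8 libraries (points), with the mean of each group (bars). The bin2-1 points lie below all others for CYP706A1, CYP706A2, CYP81D11 and CYP72A8 and above all others for CYP71B7 and CYP87A2.

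Both calls were close to the threshold, and a fit with a block for the replicate number lost both. Their direction held in all alternatives run, but each was lost without a filter on low values (adjusted p = 0.0675 for both), in a fit of Col-0 and bin2-1 alone (0.0686 for CYP706A1 and 0.0653 for CYP81D11), with plain eBayes (0.0598 and 0.0565), and without Col-0 replicate 1 and MIR394A_OE replicate 1 together (0.112 and 0.111). Leaving out a single library kept the calls only for Col-0 replicate 3 and bin2-1 replicate 3. The groups did not overlap for either gene, so leaving out libraries or changing the filter or pseudocount could not reverse the direction.

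Several genes stood near a call in either direction. CYP71B7 (AT1G13110), a CYP71 enzyme without a role stated here, was at 44.7, 50.04 and 48.3 FPKM in Col-0 against 82.5, 82.2 and 81.3 in bin2-1. The bin2-1 libraries were close to each other and lay above all Col-0 libraries, and the log2 fold change was 0.77 (SE 0.13, limma, adjusted p = 0.0619). CYP87A2 was at 4.41, 6.22 and 10.4 FPKM in Col-0 against 16.7, 17.1 and 16.3 in bin2-1, and differed by 1.21 on the log2 scale (SE 0.25, limma, adjusted p = 0.0822). CYP72A8 was at 29.5, 37.9 and 26.8 FPKM in Col-0 against 16.6, 14.2 and 19.9 in bin2-1, and differed by -0.86 on the log2 scale (SE 0.18, limma, adjusted p = 0.0880). Without Col-0 replicate 3, CYP706A2 (-1.84) and CYP87A2 (1.501) passed the test (adjusted p = 0.0262 for both).

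Genes were ranked by fold change where their higher group averaged 5 FPKM or more, a limit kept in all 3 comparisons. Within it, the remaining genes with the largest differences and no overlap did not pass the test. On the lower side in bin2-1 these were CYP81H1 (-0.93), CYP81F2 (-0.87), CYP71B4 (-0.85) and CYP89A2 (-0.74), with limma adjusted p-values from 0.157 to 0.254. On the higher side were CYP91A2 (0.55), CYP81F3 (0.55), CYP72A7 (0.50) and CYP705A18 (0.14), with adjusted p-values from 0.261 to 0.640. Below that limit some differences were larger, at CYP78A7 (1.10), CYP96A1 (0.87) and CYP702A2 (0.79) on the higher side and CYP71B12 (-1.15) and CYP71A25 (-0.90) on the lower, and none was called (adjusted p-values from 0.110 to 0.175). CYP71B12 was at 0.18, 0.17 and 0.28 FPKM in bin2-1, which rests on few fragments. At an unadjusted p under 0.05, 10 of the 121 were higher and 24 lower, beside 11.1% and 6.67% of the tested genes.

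The median log2 fold change of the 121 genes was -0.08, beside 0.10 over all tested genes. There were 47 positive and 74 negative values. Under rescaling by the median of ratios, the median of the 121 was -0.17, and without Col-0 replicate 1 it was -0.01. The median over all tested genes was not computed under these alternatives, so the distance from it is not known there. The plot of the distributions shows more P450 genes than tested genes in the bins between -1.5 and -0.25.

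**Figure D3:**
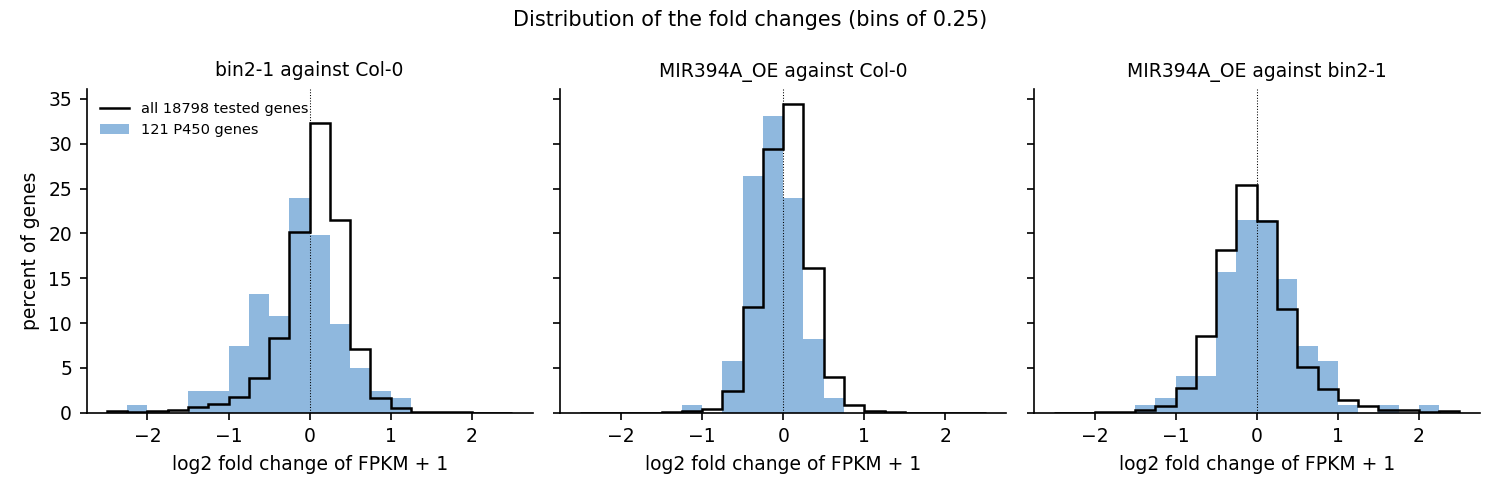
Percentage of genes in bins of 0.25 of the log2 fold change of FPKM + 1, for the 121 P450 genes (bars) and all 18798 tested genes (line), in each of the 3 comparisons. The bars sit to the left of the line in both comparisons with Col-0, which share the Col-0 libraries, and around it between MIR394A_OE and bin2-1.

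The families described next were picked after their values were seen, and their counts stand beside 8.47% of all tested genes lower in every library, 20.2% higher and 36.6% with a negative value. The 30 CYP71 genes had a median of -0.44 in bin2-1 against Col-0, with 24 negative values, 8 genes lower in every library and 1 higher. The 18 CYP705 genes had a median of 0.13, with 12 positive values, and 3 genes lower and 3 higher in every library. Of the 11 CYP81 genes 6 were lower in every library and 1 was higher, and of the 6 CYP706 genes 2 were lower and none was higher. CYP91A2, which has the synonym CYP81F1, is left out of the 11 by its symbol and was higher in every library. Summed CYP706 levels were 369.3, 341.9 and 227.1 FPKM in Col-0, 241.9 and 218.2 in MIR394A_OE, and 148.3, 127.6 and 135.1 in bin2-1. CYP706A1 alone, with a mean of 172.5 FPKM over the 8 libraries, made up most of the family's 226.2. Of the 6 genes, 4 had negative and 2 positive values. CYP706A4, 1 of the positive, averaged 4.35 FPKM in Col-0 and 7.87 in bin2-1. The summed levels of CYP705 were 216.3, 145.1 and 158.1 in Col-0 and 154.5, 142.1 and 146.3 in bin2-1, which overlap.

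Against Col-0, the MIR394A_OE libraries address what overexpression of the microRNA precursor changes. None of the 121 genes was called by limma, where 0.0106% of the tested genes were called, and at an unadjusted p under 0.05 there were 7 of the 121 lower (5.8%) and 0 higher, beside 1.63% and 3.15% of the tested genes. Ranges without overlap were found for 20 of the 121 on the lower side, beside 6.17% of the tested genes, and for 4 on the higher side, beside 10.9%. Those 20 include CYP94B2, CYP96A4 and CYP98A8, which averaged under 1 FPKM in MIR394A_OE. Without Col-0 replicate 1 and MIR394A_OE replicate 1, which leaves 1 library against 2, there were 50 lower (beside 26.7% of the tested genes) and 30 higher (beside 44.5%). The median log2 fold change of the 121 was -0.12, beside 0.04 over all tested genes, and it was -0.01 without Col-0 replicate 1. For that last fit the median over all tested genes was not computed.

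CYP72A8, at 20.3 and 20.2 FPKM in MIR394A_OE, was below all Col-0 libraries, and its log2 fold change was -0.60 (SE 0.20, limma, adjusted p = 0.873). CYP81D8, a gene used as a marker of karrikin and chemical stress responses, was at 9.62, 10.9 and 13.4 FPKM in Col-0, 8.23 and 6.47 in MIR394A_OE, and 5.73, 5.51 and 8.79 in bin2-1, so that every Col-0 library was above the other 5. Its difference between MIR394A_OE and Col-0 was -0.56 (SE 0.24) on the log2 scale. CYP81F4 (-0.52), CYP89A2 (-0.49), CYP89A5 (-0.45), CYP81K1 (-0.43), CYP706A1 (-0.40) and CYP71B7 (-0.40) were also lower without overlap. The higher genes without overlap were CYP81D11 (0.41, SE 0.20), CYP94B1 (0.13) and CYP72A13 (0.10), besides CYP702A2, which was at most 1.92 FPKM in both groups. The adjusted p-values of the 11 genes given with a fold change ran from 0.873 to 0.927.

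**Figure D4:**
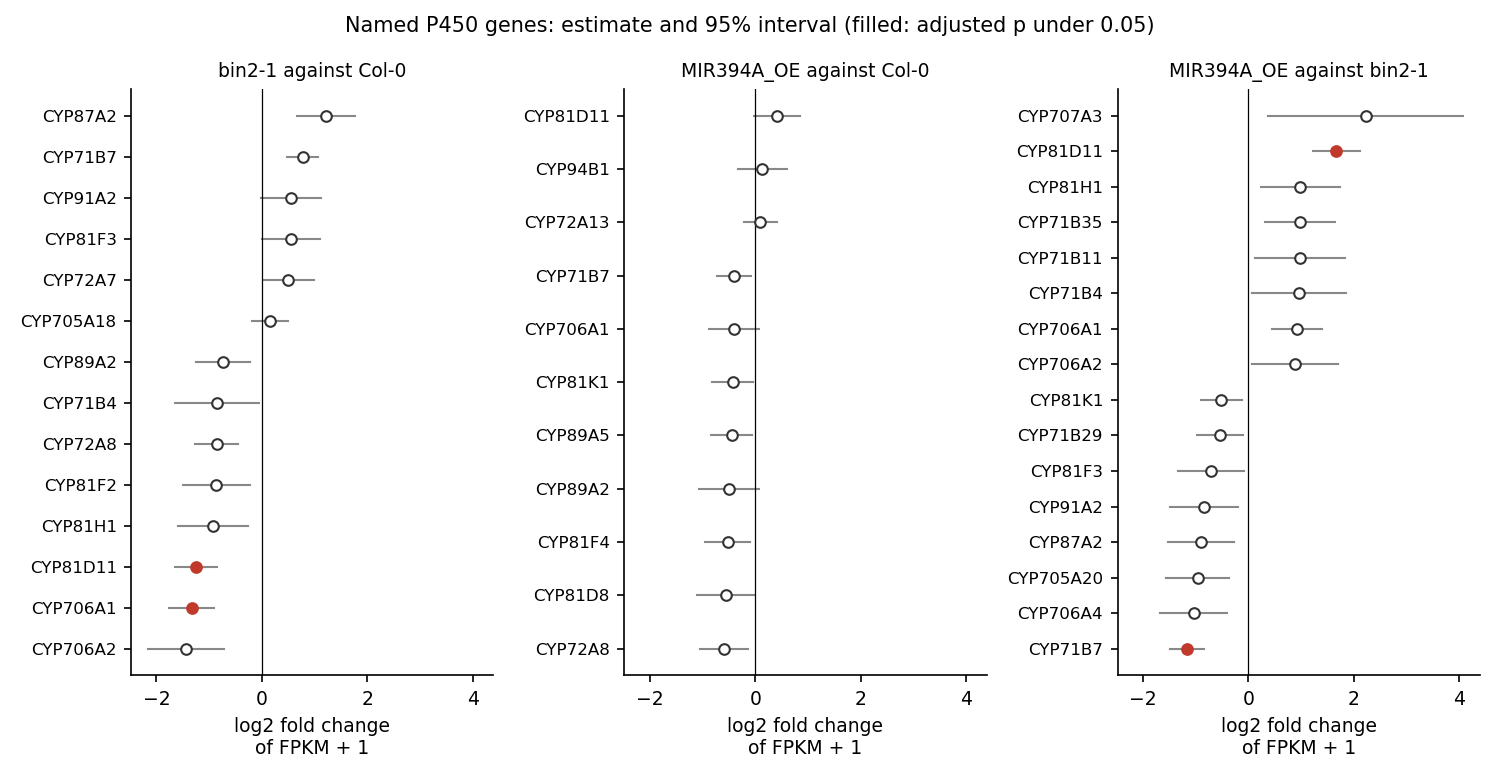
Log2 fold changes of FPKM + 1 (points) with 95% intervals (lines) for the genes named in each of the 3 comparisons, ordered by size. Filled points mark an adjusted p under 0.05 over all tested genes, which holds for CYP706A1 and CYP81D11 in bin2-1 against Col-0 and for CYP81D11 and CYP71B7 in MIR394A_OE against bin2-1.

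The comparison of MIR394A_OE with bin2-1 sets the lines against each other without Col-0. CYP81D11 was higher and CYP71B7 lower in MIR394A_OE, and both were called by limma, where 0.0532% of the tested genes were called. CYP81D11, at 35.6 and 26.9 against 8.09 to 10.4 FPKM, had a log2 fold change of 1.66 (SE 0.20, 95% interval 1.22 to 2.11, adjusted p = 0.0387). CYP71B7 was at 35.6 and 36.1 FPKM in MIR394A_OE against 81.3 to 82.5 in bin2-1, with a log2 fold change of -1.17 (SE 0.14, 95% interval -1.49 to -0.85, adjusted p = 0.0406). Both calls were lost without a filter on low values (adjusted p = 0.0589) and in a fit of the 2 groups alone (0.0610 for CYP81D11 and 0.0821 for CYP71B7), and that of CYP71B7 with plain eBayes (0.0570). Both were also lost without Col-0 replicate 2 (0.0714 and 0.0988), without bin2-1 replicate 1 (0.178 for both) and without bin2-1 replicate 2 (0.267 and 0.282). A block for the replicate number lost both calls as well. Without MIR394A_OE replicate 1 the adjusted p-values were 0.372 and 0.311, and with Col-0 replicate 1 left out as well 0.322 and 0.269. Those fits hold 1 library of MIR394A_OE, which is assumed to vary like the libraries of the other groups. Neither gene changed direction in any alternative run, and without overlap between the groups most of these could not have reversed it.

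By ranges, 19 of the 121 were higher in both MIR394A_OE libraries than in every bin2-1 library, beside 15.0% of the tested genes, and 28 were lower, beside 20.9%. The 19 include CYP71B12 and CYP708A1, and the 28 include CYP78A7, CYP82G1, CYP94B2 and CYP98A8. Each of these averaged under 1 FPKM in the lower group. Without MIR394A_OE replicate 1, which leaves 1 library against 3, the counts were 26 higher (beside 23.5%) and 45 lower (beside 33.1%). The median log2 fold change was 0.02, beside -0.06 over all tested genes. CYP706A1 (0.92, SE 0.21, limma, adjusted p = 0.106) and CYP706A2 (0.88, SE 0.36, adjusted p = 0.234) were higher in MIR394A_OE without overlap. So were CYP81H1 (0.98), CYP71B35 (0.98), CYP71B11 (0.97), CYP71B4 (0.97) and CYP707A3 (2.22, SE 0.82), and none of these passed. On the lower side were CYP706A4 (-1.04), CYP705A20 (-0.96), CYP87A2 (-0.90), CYP91A2 (-0.84), CYP81F3 (-0.71), CYP71B29 (-0.54) and CYP81K1 (-0.52), with adjusted p-values from 0.129 to 0.219. Without MIR394A_OE replicate 2, limma called CYP91A2 (-1.24, adjusted p = 0.0365) and CYP81F3 (-1.15, adjusted p = 0.0326). That fit holds only MIR394A_OE replicate 1, the library that stood apart, with its spread taken from the other groups, and both genes differed between the MIR394A_OE libraries, with 7.50 and 13.9 FPKM for CYP91A2 and 7.11 and 13.9 for CYP81F3.

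Among the 7 genes of tryptophan-derived defence, which make camalexin, indole carboxylates and modified indole glucosinolates, none was called in any comparison. In bin2-1 against Col-0, 3 were lower in every library (CYP81F4, CYP81F2 and CYP71B6) and 2 were higher in every library (CYP91A2, listed under its synonym CYP81F1, and CYP81F3), beside 8.47% and 20.2% of the tested genes. CYP81F2, the glucosinolate-modifying enzyme required for resistance to several pathogens, was at 29.2, 64.8 and 36.5 FPKM in Col-0 against 20.9, 19.0 and 27.0 in bin2-1. CYP81F3 was at 14.1, 11.3 and 9.03 FPKM in Col-0 against 16.7, 19.1 and 15.3 in bin2-1. These glucosinolate-modifying genes thus did not share a direction. CYP71A13 and CYP71A12, which act early in camalexin synthesis, varied within groups. CYP71A13 was at 0.890, 9.16 and 11.2 FPKM in Col-0, at 2.32 and 3.93 in MIR394A_OE and at 1.24, 1.24 and 4.63 in bin2-1. It overlaps CYP71A12 in sequence (90.4% coding identity), so the levels of the pair may share fragments.

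Among the 10 genes of hormone metabolism none was called. CYP707A3, an abscisic acid hydroxylase that inactivates the hormone, was at 144.9, 75.4 and 13.7 FPKM in Col-0, 62.5 and 48.4 in MIR394A_OE, and 7.93, 7.73 and 21.2 in bin2-1. The Col-0 libraries differed widely among themselves, and Col-0 replicate 3 lay inside the range of bin2-1. CYP94C1, which oxidises jasmonoyl-isoleucine, was at 5.52, 36.6 and 29.8 FPKM in Col-0, 16.9 and 38.1 in MIR394A_OE, and 10.3, 4.83 and 44.9 in bin2-1, and all its groups overlapped. It had the widest spread of the 121 (within-group SD 1.35 on the log2 scale), before CYP82G1 (1.203), CYP707A3 (1.19), CYP71A13 (1.07) and CYP706A6 (0.95). The median within-group SD was 0.308 for the 121 genes and 0.249 for all tested genes. CYP707A2, another abscisic acid hydroxylase, was at 8.70, 4.00 and 4.27 FPKM in Col-0 against 2.92, 3.49 and 3.05 in bin2-1, with no overlap. CYP711A1 (MAX1), of strigolactone synthesis, CYP88A3, of gibberellin synthesis, and CYP735A2, of cytokinin synthesis, had overlapping ranges in Col-0 and bin2-1.

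The 4 triterpene genes had no call. The thalianol pair was at 114.0, 57.6 and 56.6 FPKM (CYP705A5) and 89.5, 48.6 and 39.2 FPKM (CYP708A2) in Col-0, at 75.3 and 43.2 and at 68.9 and 36.1 in MIR394A_OE, and at 54.3, 37.2 and 43.3 and at 34.9, 30.9 and 44.9 in bin2-1. For both, replicate 1 was the highest library of Col-0 and of MIR394A_OE, which are the libraries that stood apart. CYP71A16, of marneral oxidation, showed the same, with 27.8 FPKM in Col-0 replicate 1 against 8.49 to 16.0 in the other Col-0 and MIR394A_OE libraries. CYP705A1, which cleaves arabidiol, was at 3.39 to 6.61 FPKM in Col-0 and 6.28 to 7.50 in bin2-1.

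None of the 3 sterol genes and none of the 4 phenolic genes was called. CYP51G1 was at 65.5, 67.5 and 77.8 FPKM in Col-0, 62.1 and 59.7 in MIR394A_OE, and 81.7, 65.8 and 60.1 in bin2-1. The sterol desaturases CYP710A2 and CYP710A1 were lower, at means of 6.55 and 3.06 FPKM over the 8 libraries, and CYP710A1 was lower in every bin2-1 library (1.47 to 2.28) than in every Col-0 library (2.52 to 8.15). CYP98A3 was at 48.3, 47.6 and 60.3 FPKM in Col-0, 38.7 and 49.6 in MIR394A_OE, and 66.3, 66.2 and 53.1 in bin2-1, and the ranges of Col-0 and bin2-1 overlapped. CYP98A8, which acts on phenolamides in pollen, was at most 2.17 FPKM in any library.

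CYP78A genes are known as promoters of organ growth. CYP78A5 (KLU) was at 6.80, 4.66 and 5.96 FPKM in Col-0 against 12.2, 8.59 and 6.78 in bin2-1. CYP78A7 was at 0.410, 1.12 and 1.83 FPKM in Col-0 against 4.01, 4.26 and 2.19 in bin2-1, with no overlap, and CYP78A8 was at 3.04, 2.02 and 1.96 in Col-0 and at 1.25, 1.29 and 1.21 in bin2-1, also with no overlap and in the other direction. None of the 3 was called. CYP78A7 was 1 of 10 genes with a group mean under 1 FPKM, so that its place among the 121 rests on the bin2-1 libraries.

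Of the smaller role lists, none held a call beside CYP81D11. CYP76C1, which oxidises linalool, was at 22.7, 6.91 and 10.2 FPKM in Col-0 against 10.14, 10.9 and 5.76 in bin2-1. CYP82G1, which makes a volatile homoterpene, was listed at 0 in Col-0 replicate 1 and was at 6.29 in replicate 3 and 8.75 in bin2-1 replicate 3. The cutin and fatty acid oxidases CYP77A6 and CYP77A4 were at means of 4.23 and 3.04 FPKM over the 8 libraries with overlapping ranges in Col-0 and bin2-1, as was CYP89A9, which acts in chlorophyll breakdown (5.81).

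Position was a second feature the selection did not use. With at most 2 coding genes between neighbours, 76 of the 121 genes stood in 23 runs on TAIR10.1, the largest with 7 genes. It holds CYP81H1, CYP81D5, CYP81D4, CYP81D8, CYP81F3, CYP81F4 and CYP91A2 on chromosome 4. In bin2-1 against Col-0, 4 of these were lower in every library and 2 were higher, beside 8.47% and 20.2% of the tested genes. CYP81H1, at 16.7, 8.88 and 6.55 FPKM in Col-0 and 4.49, 5.49 and 4.36 in bin2-1, stood at one end with CYP91A2, at 8.95, 14.9 and 15.5 against 18.0, 19.6 and 19.8, at the other. The CYP72A run on chromosome 3 had 3 genes lower in every library (CYP72A8, CYP72A13 and CYP72A15) and 1 higher (CYP72A7), beside the same shares. The CYP705A run of 6 genes on the same chromosome had 5 positive values in this comparison, beside 63.4% of the tested genes, and 5 of its genes were lower in MIR394A_OE than in bin2-1 without overlap, beside 20.9%. These runs were picked after their values were seen. Of the 121 genes, 20 had a copy of the same subfamily with at least 90% coding identity, among them CYP72A11 and CYP72A13 (92.9%) and CYP89A5 and CYP89A6 (94.1%), and their separate levels are uncertain in the same way as those of CYP706A1 and CYP706A2.

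**Figure D5:**
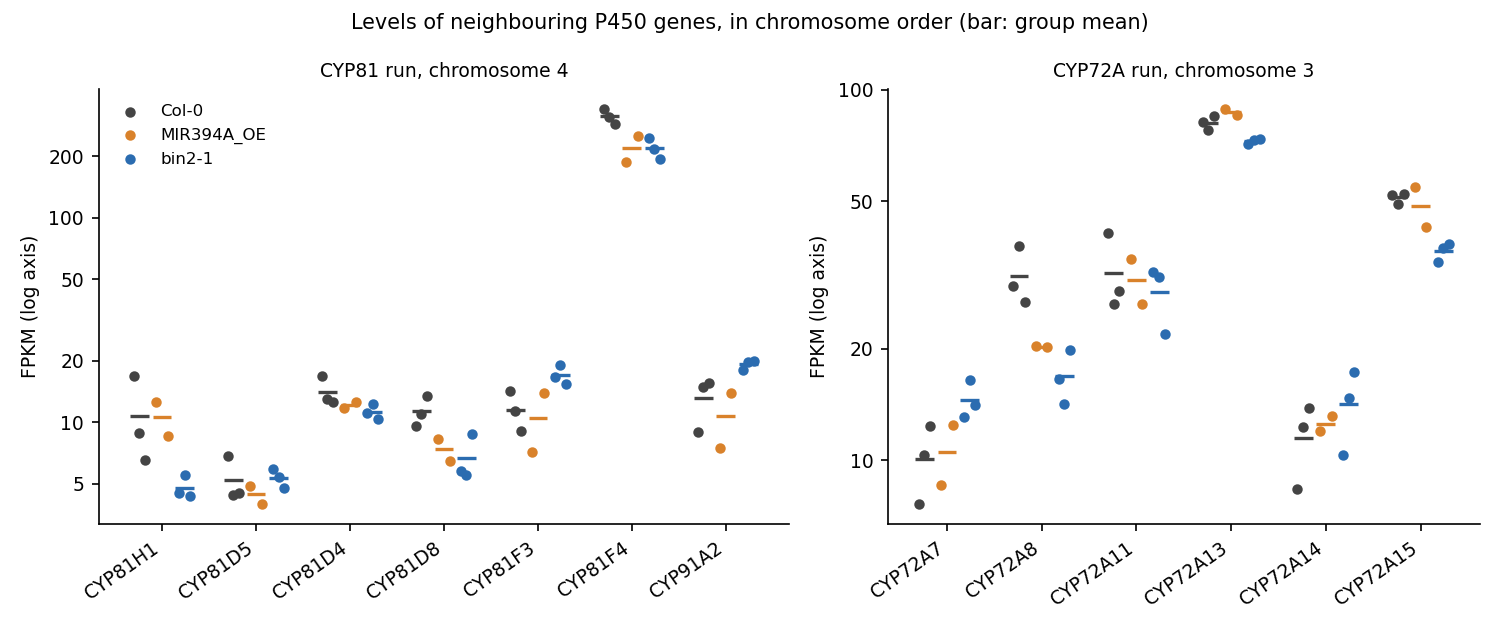
FPKM on a log axis for neighbouring genes of the CYP81 run on chromosome 4 and the CYP72A run on chromosome 3, in chromosome order, in each library (points) with group means (bars). CYP81H1 is lower and CYP91A2 higher in bin2-1 than in Col-0 without overlap, and CYP81F4 is far above its neighbours.

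The genes that hand electrons to P450 enzymes or act as scaffolds for them had no call in any of the 3 comparisons. These were the reductases ATR1 and ATR2, 5 cytochrome b5 genes and the membrane scaffold genes MSBP1 and MAPR3, 9 in all. ATR1 was at 67.3, 66.7 and 67.8 FPKM in Col-0 against 72.4, 78.5 and 81.1 in bin2-1. ATR2 was at 153.5, 314.7 and 214.0 in Col-0, 104.2 and 274.0 in MIR394A_OE, and 120.2, 155.8 and 231.6 in bin2-1, with wide ranges that overlapped. The summed level of the 9 genes was 875 to 1019 FPKM in Col-0 and 906 to 928 in bin2-1.

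Other genes of chemical detoxification were read beside CYP81D11 and CYP81D8. Of 11 tested genes of a xenobiotic response list, 35 GSTU and GSTF glutathione transferases and 47 UGT glycosyltransferases, none was called in any comparison. UGT73C1, a glycosyltransferase, was at 4.51, 4.25 and 3.45 FPKM in Col-0, 8.86 and 3.63 in MIR394A_OE and 0.640, 1.14 and 1.34 in bin2-1, lowest in bin2-1 as CYP81D11 was (log2 fold change -1.32, SE 0.28, limma, adjusted p = 0.0880). UGT73B4, of the same list, was at 9.51, 14.5 and 14.9 FPKM in Col-0 against 25.5, 22.0 and 24.6 in bin2-1, in the other direction (0.87, SE 0.20, adjusted p = 0.105). In bin2-1 against Col-0 the list as a whole had 4 positive and 7 negative values, beside 36.6% negative over all tested genes. Of the 16 tested P450 genes of the left-out families none was called in any comparison. In bin2-1 against Col-0, 11 of their values were negative and 5 positive, beside the same share.

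Many P450 genes are organ-specific, so marker genes of the organs were read as well. The summed level of 18 root markers was 175.1 to 222.0 FPKM in Col-0, 156.6 to 157.7 in MIR394A_OE and 159.4 to 190.4 in bin2-1, and that of 11 shoot markers was 17521 to 20973 in Col-0, 18988 to 23268 in MIR394A_OE and 14134 to 21242 in bin2-1. The shoot sums rest mostly on RBCS1A, LHCA1, CAB2 and CAB3, with means of 11535, 3282, 2398 and 2066 FPKM over the 8 libraries. None of the 16 tested root markers and none of the 10 tested shoot markers was called, and NRT2.1 was at 0 in MIR394A_OE replicate 2. In bin2-1 against Col-0, 3 shoot markers (SPCH, FMA and ATML1) were higher in every library and 1 (LHCA1) was lower, beside 20.2% and 8.47% of the tested genes. The 3 seed storage genes summed to 1.89 to 11.3 FPKM over the 8 libraries. The root sums were thus lower in MIR394A_OE than in Col-0 without overlap, as the summed P450 level was. Single root markers did not share that direction, with 8 positive and 8 negative values among the 16 tested (median log2 fold change -0.02). The highest of them, PRP3, was at 38.92, 70.5 and 83.55 FPKM in Col-0 against 27.49 and 36.8 in MIR394A_OE. In bin2-1, where the summed P450 level was lowest, the root sums overlapped those of Col-0 and lay above those of MIR394A_OE. The tested root markers had 6 positive and 10 negative values in bin2-1 against Col-0, beside 36.6% negative over all tested genes. The part of organ make-up in the P450 levels was not tested.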

How the data were processed

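Per the labels' protocols, seedling RNA was extracted with a Qiagen RNeasy kit and barcoded mRNA libraries were prepared with an Illumina kit. The authors deposited FPKM values with 2 decimals, and the submitters' processing notes list HISAT and Bowtie2 without versions. The sources used here do not give the build, the annotation, the use of strand or the handling of fragments with several matches. Of 22951 genes, 22798 were matched by gene ID to the RefSeq TAIR10.1 gene table.

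The members and lists were chosen with earlier results of these data known. All 18798 genes whose mean reached 1 FPKM entered limma 3.58.1 (R 4.3.3) on log2(FPKM + 1), with all 8 libraries, a mean per group, and eBayes with trend and robust options. Tests were two-sided, with Benjamini-Hochberg adjustment over all tested genes and a threshold of 0.05. Fold changes are on the log2(FPKM + 1) scale, which understates changes of low genes. The fit was tested on simulated data. A fold change is printed for genes called and for up to 8 genes per direction and comparison with the largest change, if the groups did not overlap and the higher one averaged at least 5 FPKM. Levels are printed for most genes of the role lists and the 8 highest genes. The fold changes printed below that limit, of CYP78A7, CYP96A1, CYP702A2, CYP71B12 and CYP71A25, were picked after their values were seen. So were CYP706A6 and the runs and families described. Depth was estimated from 686 genes of 500 to 1800 nt, whose low values were whole fragments within 0.1 in 87.2 to 92.4% of cases (20% by chance), and intervals cover the spread between libraries only. Sequences were read from RefSeq TAIR10.1 with Biopython 1.88. Alternatives were other pseudocounts, filters and scalings, a replicate block, fits of 2 groups, plain eBayes, and leaving out libraries.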

Additional observations from a re-analysis of the deposited data

How the results depend on the processing

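Of 735 values of single genes under the alternatives, 692 kept their direction and their side of the threshold, 39 lost a call and 4 gained one, and 0 changed direction. These values belong to 41 named results. Only the 2 calls of bin2-1 against Col-0 and the 2 of MIR394A_OE against bin2-1 could lose a call. The named genes had groups without overlap, so a kept direction was mostly fixed by that choice. The 692 therefore do not show that the calls were stable. The P450 genes called in bin2-1 against Col-0 were 2 in the reported fit and 0 without a filter on low values, in the fit of the 2 groups alone, with plain eBayes, with the replicate block and without Col-0 replicate 1 and MIR394A_OE replicate 1 together. Leaving out 1 library gave 0 to 5. Between MIR394A_OE and bin2-1 they were 2, with 0 under the same settings except plain eBayes (1), and 0 to 6 without 1 library. In MIR394A_OE against Col-0 they were 0 under every alternative run, with 1 to 13 at an unadjusted p under 0.05. Same-numbered libraries deviated from their group means together with r from -0.20 to 0.36, the highest for Col-0 replicate 1 and MIR394A_OE replicate 1. These values cannot show whether the replicate numbers pair the libraries, since deviations within groups of 2 or 3 libraries depend on each other.

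Over all genes, bin2-1 against Col-0 gave 21 calls, and 3 without a filter, 111 under the median of ratios, 32 with the replicate block, 0 for the 2 groups alone, 9 with plain eBayes, 1 without both libraries and 0 to 180 without 1 library. MIR394A_OE against Col-0 gave 2, and 0 for the 2 groups alone and 0 to 2 without 1 library. MIR394A_OE against bin2-1 gave 10, and 6 with a pseudocount of 0.1 or 0.5 FPKM, 3 without a filter, 0 for the 2 groups alone, 2 without both libraries and 1 to 2307 without 1 library, the highest without MIR394A_OE replicate 2, where 1 library of that group, the one that stood apart, is assumed to vary like the other groups.

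The median log2 fold change of the P450 genes in bin2-1 against Col-0 was -0.08, and -0.16 with a mean of at least 5 FPKM, -0.17 under the median of ratios, -0.0068 without both libraries and -0.154 to -0.0079 without 1 library. In MIR394A_OE against Col-0 it was -0.12, and -0.165 to -0.0137 without 1 library. Between MIR394A_OE and bin2-1 it was 0.02, and -0.0497 without both libraries and -0.05 to 0.03 without 1 library. The median over all tested genes was not computed under the alternatives, so these values cannot be set beside it. The cause was not tested for any of these shifts. The fit without both libraries was chosen after seeing the data. Precision is limited by 2 or 3 libraries per group.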
